A study of Mus musculus with 6 samples.

Results

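The 8 genes described here encode the enzymes that write and remove DNA methylation in the mouse, with the factor that brings the maintenance enzyme to its substrate. They are Dnmt1 and Uhrf1 for maintenance, Dnmt3a, Dnmt3b and Dnmt3l for new methylation, and Tet1, Tet2 and Tet3 for oxidation of the methyl group. They were chosen by symbol, and all 8 were found among the 32285 genes of the count table. RNA was measured in 6 libraries of GS cells, a line of spermatogonia kept in culture with stem cell properties. The 3 control libraries came from p57 flox/flox cells, in which Cdkn1c, which encodes the cyclin-dependent kinase inhibitor p57, can be cut out by Cre. The 3 p57 KO libraries came from cells of the same genotype with Cre recombinase from an adenovirus (p57 flox/flox-Cre). The time after infection is recorded as 2 days for all 6 libraries, controls included. The labels give the mouse age as 3 days in one place and 10 days in another, and the background as BDF1 in one place and as C57BL/6 and 129 in another. Beyond the time after infection, the labels do not say if the controls were infected with any virus, or if the replicates were separate cultures. The spread behind the p-values below is thus that between libraries and may be technical.

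Methylation of cytosine in CpG dinucleotides is copied to the new DNA strand after replication by DNMT1, which UHRF1 recruits to half-methylated CpG. DNMT3A and DNMT3B place methyl groups on unmethylated DNA, and DNMT3L, which has no catalytic activity, stimulates them and is needed for methylation in prospermatogonia. TET enzymes oxidise 5-methylcytosine, which leads to its loss through replication or base excision. In spermatogonia DNMT3A and DNMT3B proteins are known to be more abundant in differentiating than in undifferentiated cells. Cdkn1c is itself imprinted, so that its maternal allele is expressed under the control of a methylated imprinting centre.

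The CpG sites before the listed start sites of these genes are shown first, because CpG is the substrate of the enzymes themselves. RefSeq lists 15 start sites for the 8 genes (GRCm38.p6, the assembly that mm10 stands for). The 250 bases before each start held from 2 CpG, at the most upstream start of Dnmt1, to 51, at the start of Tet2. Starts 2 and 3 of Dnmt1 had 7 and 26. Above the median of 6 over 32851 promoters were 11 of the 15 stretches. Some stretches lie partly in exons of their own gene, among them 166 of the 250 bases at start 3 of Dnmt1. Starts of the same gene were counted separately, and the first 2 stretches of Dnmt3a overlap each other. The stretches of Dnmt3a and Dnmt3b, whose RNA moved in opposite directions, and that of Tet2, the densest, are given below from 5′ to 3′ with each CpG in capitals.
Dnmt3a, first of 3 starts: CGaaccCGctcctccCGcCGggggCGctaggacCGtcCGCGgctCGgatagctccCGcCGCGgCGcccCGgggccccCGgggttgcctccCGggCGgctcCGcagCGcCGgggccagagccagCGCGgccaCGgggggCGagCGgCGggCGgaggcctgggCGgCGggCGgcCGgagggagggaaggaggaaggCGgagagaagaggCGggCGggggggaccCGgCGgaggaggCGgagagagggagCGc
Dnmt3b: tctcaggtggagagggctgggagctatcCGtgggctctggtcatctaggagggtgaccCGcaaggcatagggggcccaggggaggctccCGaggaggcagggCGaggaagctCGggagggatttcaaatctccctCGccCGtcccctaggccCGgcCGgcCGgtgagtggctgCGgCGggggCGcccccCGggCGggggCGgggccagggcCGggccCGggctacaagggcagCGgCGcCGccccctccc
Tet2: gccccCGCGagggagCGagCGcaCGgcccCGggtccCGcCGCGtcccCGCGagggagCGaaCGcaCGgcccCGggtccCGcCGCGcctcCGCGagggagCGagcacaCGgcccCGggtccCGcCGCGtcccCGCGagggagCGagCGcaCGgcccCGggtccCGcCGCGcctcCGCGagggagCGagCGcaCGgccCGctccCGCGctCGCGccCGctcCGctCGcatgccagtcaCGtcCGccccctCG
The Dnmt3a stretch (chr12:3806730-3806979, plus strand) held 38 CpG, and 98.1% of promoters held fewer. The Dnmt3b stretch (chr2:153649199-153649448, plus strand) held 21, with 83.7% of promoters below it. The Tet2 stretch (chr3:133544391-133544640, minus strand) held 51, with 99.9% below it. The last start of Dnmt3a, from which a shorter form of the protein is made, had 15 in its stretch. None of the 3 stretches overlaps an annotated exon of its own gene. Those of Dnmt3a and Tet2 nevertheless lie inside the annotated span of the gene, between its exons. Counts per gene do not tell the forms of Dnmt3a or of Dnmt1 apart, and no methylation was measured here.

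Total counts per library lay between 15662833 and 17893671. Cdkn1c had 311 to 364 counts in control and 138 to 155 in p57 KO, a fall of 1.22 on the log2 scale (SE 0.09, edgeR adjusted p = 4.07e-09) in the direction of the labels; Gm44732 overlaps 625 of its exon bases on the other strand. The 12 markers of undifferentiated spermatogonia, none of them at 0 throughout, had a summed level of 4140 to 4190 CPM in control and 3520 to 3730 CPM in p57 KO, and 9 of the 12 fell, against 11.6% of all tested genes. Markers of fibroblasts and feeder cells summed to 867 to 1100 CPM in control and 1340 to 2590 CPM in p57 KO, none was at 0 throughout, and 5 of the 19 rose (2 to 13 with 1 library left out, the fewest without control replicate 3 and the most without p57 KO replicate 1; 16 in DESeq2 and 17 in limma-voom). Macrophage markers summed to 12.4 to 13.9 CPM in control and 17.2 to 20.2 CPM in p57 KO, with the group means of Csf1r and Adgre1 at 0.196 CPM or less. CPM are counts scaled to a common library total with edgeR's TMM factors. The mean log2 CPM of the 19 markers, called the fibroblast score below, was 3.24, 3.84 and 3.28 in control replicates 1, 2 and 3 and 4.13, 4.78 and 5.35 in p57 KO replicates 1, 2 and 3. The groups did not overlap in it, so that a difference in cell mixture and a difference in group cannot be told apart by it. In these bulk libraries fewer cells of a type and less RNA per cell cannot be told apart either.

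Levels of the 8 genes spanned more than 3 orders of magnitude per length, in both groups in the same order. Uhrf1 stood first with 189 ± 5.63 CPM per kb of exon in control (SD, n = 3), above 99.2% of the tested genes. Dnmt1 followed with 97.3 ± 0.627, Dnmt3a with 19.9 ± 0.511, Dnmt3b with 14.8 ± 0.0674 and Tet3 with 5.09 ± 0.237 CPM per kb (SD, n = 3 each). Dnmt3l (0.177 ± 0.0599), Tet2 (0.114 ± 0.0292) and Tet1 (0.0551 ± 0.00834 CPM per kb, SD, n = 3 each) were above no more than 4.04% of the tested genes. The library ranges of neighbours in this order did not overlap in control, except those of Dnmt3l and Tet2. In p57 KO the ranges of Dnmt3a (16.7 to 18 CPM per kb) and Dnmt3b (15.8 to 16.8) met as well, as did those of Dnmt3l and Tet2. Exon length is the union over all annotated transcripts, which understates genes with long alternative exons. With the length of the principal transcript, a choice made after the data were seen, the order was the same, while Tet3 stood at 14.3 CPM per kb in control against 17.5 for Dnmt3b and 34.2 for Dnmt3a.

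**Figure D1:**
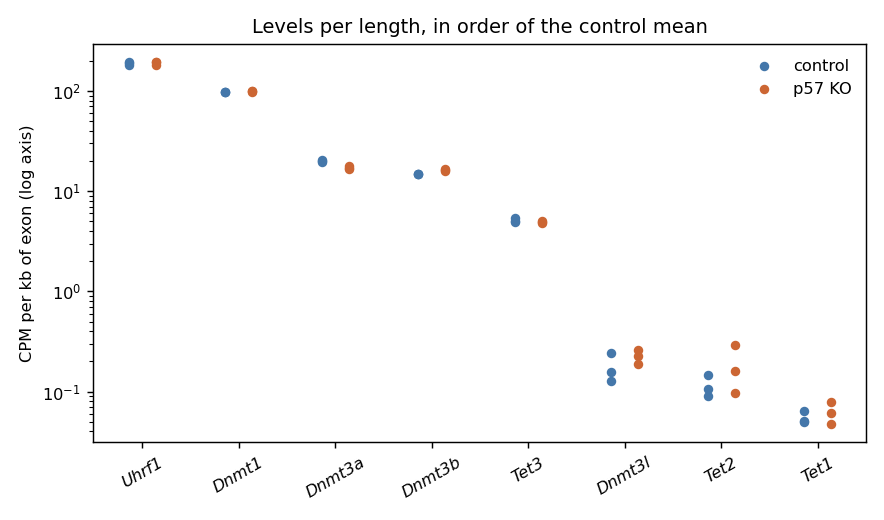
Level of each gene per library in CPM per kb of exon (log axis), in order of the control mean; blue points are the 3 control and orange points the 3 p57 KO libraries. Uhrf1 and Dnmt1 lie near 189 and 97.3, Tet3 near 5.09, and Dnmt3l, Tet2 and Tet1 below 0.3.

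Of the 8 genes, 1 fell (Dnmt3a) and 1 rose (Dnmt3b), 2 of 8 against 23.3% of the 14814 tested genes that changed in either direction (edgeR's quasi-likelihood test, adjusted p under 0.05). The count of changed genes among the 8 is thus near the background. The share of all tested genes was 11.6% for rises and 11.6% for falls. The median log2 fold change was 0.09 over the 8 genes and -0.002 over all tested genes. Library ranges did not overlap for 3 of the 8 (Dnmt1, Dnmt3a and Dnmt3b), against 39.2% of the tested genes. An exact permutation test, two-sided, on the log2 CPM of each of these 3 gave p = 0.1, which is the lowest p that 3 libraries against 3 can give. That p follows from the lack of overlap and adds no support. For the rest of the 8 genes the same permutation test gave p from 0.3 to 0.7.

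**Figure D2:**
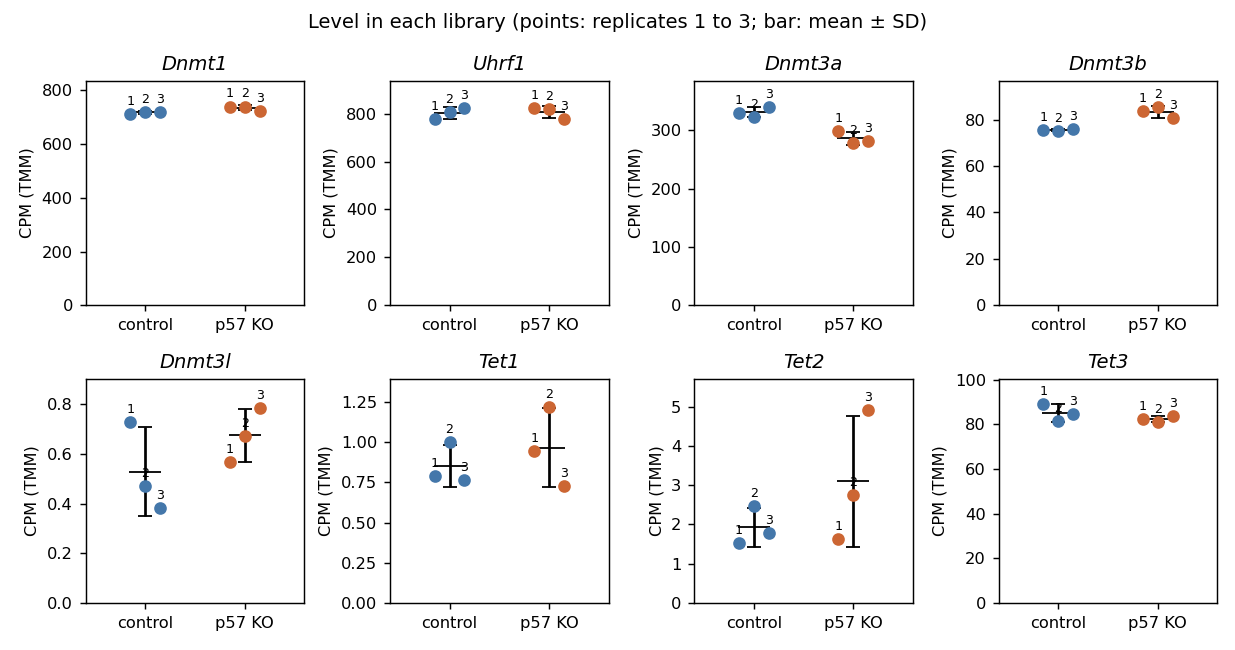
CPM of each of the 8 genes in each library, with the replicate number at the point and the mean ± SD of 3 libraries as a bar; each panel has its own axis from 0. All p57 KO points of Dnmt3a (278 to 299) lie under the control points (323 to 340), and all p57 KO points of Dnmt3b (80.7 to 85.5) lie above them (75.2 to 75.9).

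The maintenance genes showed little difference. Dnmt1 (mm10, chromosome 9, 20907209 to 20959888, minus strand), the methyltransferase that acts behind the replication fork, had 713, 721 and 720 CPM in control replicates 1 to 3 and 740, 740 and 724 CPM in p57 KO. Every p57 KO library was above every control library, but the nearest of them were 724 and 721 CPM. The log2 fold change was 0.03 (95% interval -0.02 to 0.09, edgeR adjusted p = 0.368). Uhrf1 (chromosome 17, 56303321 to 56323486, plus strand), which binds half-methylated CpG, had 777, 807 and 825 CPM in control and 825, 820 and 779 CPM in p57 KO. Its groups overlapped almost completely, and the log2 fold change was 0.01 (95% interval -0.05 to 0.07, edgeR adjusted p = 0.86). Its sign turned when single libraries were left out, with a range from -0.02, without control replicate 1, to 0.03. With 11265 to 13905 counts per library for these 2 genes, the intervals do not reach a fold of 1.2.

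Of other S phase genes, which like Dnmt1 and Uhrf1 are known to be expressed in cycling cells, 5 of 17 fell, with a median log2 fold change of -0.06, against 11.6% of all tested genes with a median of -0.002. Ung, which removes uracil from DNA, had -0.15 (edgeR adjusted p = 0.00437), the ribonucleotide reductase gene Rrm1 had -0.10 (0.0109) and the helicase subunit gene Mcm7 -0.10 (0.0148). Mcm7 lost its call in edgeR without control replicate 1 (adjusted p = 0.0569), control replicate 2 (0.0751) or p57 KO replicate 3 (0.0938). Leaving out 1 library, 2 to 5 of the 17 fell, with 2 without control replicate 1, control replicate 2 or p57 KO replicate 3, and 3 without control replicate 3.

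The de novo enzymes parted. Dnmt3a (chromosome 12, 3806007 to 3914443, plus strand) stood above Dnmt3b per length of exon in control, while their ranges met in p57 KO. Dnmt3a had 330, 323 and 340 CPM in control replicates 1 to 3 and 299, 278 and 281 CPM in p57 KO. The highest p57 KO library lay under the lowest control library. Its mean fell to 86.4% of control, from 331 ± 8.5 to 286 ± 11.6 CPM (SD, n = 3 per group). The log2 fold change was -0.21, with SE 0.03 and an adjusted p = 4.08e-05 in edgeR. The fall kept its call in edgeR when any 1 library was left out, with log2 fold changes from -0.25 to -0.19. It also passed in DESeq2 (adjusted p = 2.03e-07) and limma-voom (0.00108).

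Dnmt3b (chromosome 2, 153649450 to 153687730, plus strand), the second de novo methyltransferase, had 75.7, 75.2 and 75.9 CPM in control and 83.7, 85.5 and 80.7 CPM in p57 KO. The control libraries were close together and all p57 KO libraries lay above them. Its mean rose to 110% of control, from 75.6 ± 0.344 to 83.3 ± 2.43 CPM (SD, n = 3 per group). The log2 fold change was 0.14, with SE 0.04 and an adjusted p = 0.0118 in edgeR. The call was lost in edgeR without p57 KO replicate 2 (log2 fold change 0.12, adjusted p = 0.0653) and in DESeq2 (0.14, 0.0631). Against a fold of 1.2 neither gene passed.

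The count ratio of Dnmt3a to Dnmt3b, which needs no scaling between libraries, was 4.35, 4.3 and 4.48 in control and 3.58, 3.25 and 3.48 in p57 KO replicates 1 to 3. Its groups did not overlap. On the log2 scale it went from 2.13 ± 0.03 to 1.78 ± 0.07 (SD, n = 3 in each group), a difference of -0.35 with an exact permutation p = 0.1, the smallest possible. The pair was chosen after the folds were seen. Every p57 KO library was below control for Dnmt3a and above it for Dnmt3b. The lack of overlap in the ratio and its permutation p follow from that and add no support. The ratio of counts is not corrected for length, so its size is no ratio of molecules.

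**Figure D3:**
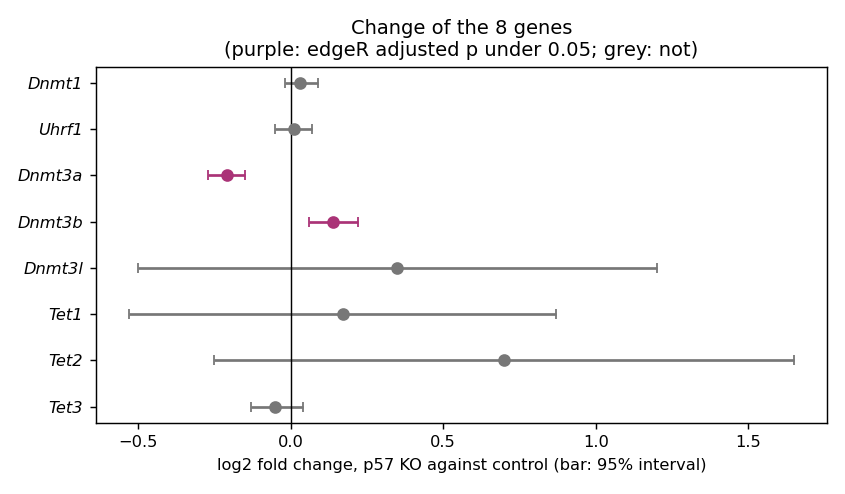
Log2 fold change of each gene, p57 KO against control, with its 95% interval from edgeR; purple marks an adjusted p under 0.05. The intervals of Dnmt3a (-0.27 to -0.15) and Dnmt3b (0.06 to 0.22) lie on opposite sides of 0, and those of Dnmt3l, Tet1 and Tet2 are several times wider than those of the other 5 genes.

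Both called genes differed between the same groups as the fibroblast score. In an edgeR model with the score as a covariate, the value for Dnmt3a was -0.11 (log2, adjusted p = 0.323) and that for Dnmt3b 0.19 (0.209), so that the fold of Dnmt3a shrank, that of Dnmt3b grew, and neither was called. Over all genes, 242 were higher and 161 lower in that model. Within p57 KO, replicate 1, with the lowest score of 4.13, had the highest Dnmt3a level of 299 CPM, and replicates 2 and 3 had 278 and 281 CPM at scores of 4.78 and 5.35. For Dnmt3b the p57 KO library of highest score, replicate 3, had the lowest p57 KO level (80.7 CPM). Control replicate 2, of highest control score (3.84), had the lowest control level of both Dnmt3a (323 CPM) and Dnmt3b (75.2 CPM). With 3 libraries per group, such orders cannot tell cell mixture from other differences between libraries. The part of the cell mixture in the changes of Dnmt3a and Dnmt3b was not tested.

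Dnmt3l (chromosome 10, 78041947 to 78063622, plus strand), the catalytically inactive partner, was near the limit of detection, with 12, 8 and 6 counts in control and 9, 11 and 14 in p57 KO. The groups overlapped. The log2 fold change of 0.35 had a 95% interval from -0.50 to 1.2 (edgeR adjusted p = 0.582), which holds both falls and rises. Dnmt3c, a rodent copy of Dnmt3b that methylates young transposons in the male germ line, had 2 to 7 counts per library and did not pass the filter on low counts.

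Sequence shared between genes bears on these counts. Of the stretches of read length (76 bases) in the transcripts of Dnmt3b, 6.09% also occur in Dnmt3c, and 8.86% of those of Uhrf1 in Gm5648. The count table holds no gene under the symbol Gm5648, so its level could not be looked at. Dnmt3a shares 0.129% and Tet1 0.275%, and Dnmt1, Dnmt3l, Tet2 and Tet3 share none with another annotated gene. On the other strand, Dnmt3aos overlaps 133 exon bases of Dnmt3a and had 0 counts in all 6 libraries, as had Aire, which overlaps 67 exon bases of Dnmt3l. Gm42567 overlaps 43 exon bases of Tet2 and had 3 counts in control replicate 2 and 0 in the other 5 libraries. Dnmt3bos, which lies opposite Dnmt3b without overlap of exons, had 2 counts in each control library and 5, 5 and 8 in p57 KO.

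Of the TET genes, Tet3 was the one expressed at an appreciable level. Tet3 (chromosome 6, 83362373 to 83459084, minus strand), known as the dioxygenase of the zygote, had 89.2, 81.4 and 84.4 CPM in control and 82.4, 80.8 and 83.6 CPM in p57 KO. The groups overlapped, and the log2 fold change was -0.05 (95% interval -0.13 to 0.04, edgeR adjusted p = 0.443). Tet1 (chromosome 10, 62804570 to 62908996, minus strand), abundant in embryonic stem cells and in primordial germ cells, had 13, 17 and 12 counts in control and 15, 20 and 13 in p57 KO. It was detected in every library at about 1 CPM or less in control, with a log2 fold change of 0.17 (95% interval -0.53 to 0.87, edgeR adjusted p = 0.77) that turned to -0.04 without p57 KO replicate 2.

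Tet2 (chromosome 3, 133463679 to 133545139, minus strand), widely expressed in blood and other somatic cells, differed most between libraries. It had 1.52, 2.47 and 1.79 CPM in control replicates 1 to 3 and 1.64, 2.74 and 4.93 CPM in p57 KO, from 25 to 88 counts. Replicate 1 of p57 KO lay within the control range, and replicate 3 lay far above the other 5 libraries. The log2 fold change was 0.70 (95% interval -0.25 to 1.65, edgeR adjusted p = 0.27). It was 0.18 without p57 KO replicate 3, and 0.99 with an adjusted p = 0.00531 without p57 KO replicate 1. Within each group the libraries had the same order by Tet2 and by the fibroblast score, and with the score as a covariate the log2 fold change turned to -1.05 (edgeR adjusted p = 0.173). Unadjusted, none of the 3 TET genes reached p under 0.05 in edgeR, where their p-values were 0.627, 0.127 and 0.262 for Tet1, Tet2 and Tet3, and none was called in DESeq2 or limma-voom. Without the filter on low counts Tet2 was called (0.70, edgeR adjusted p = 0.0148).

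**Figure D4:**
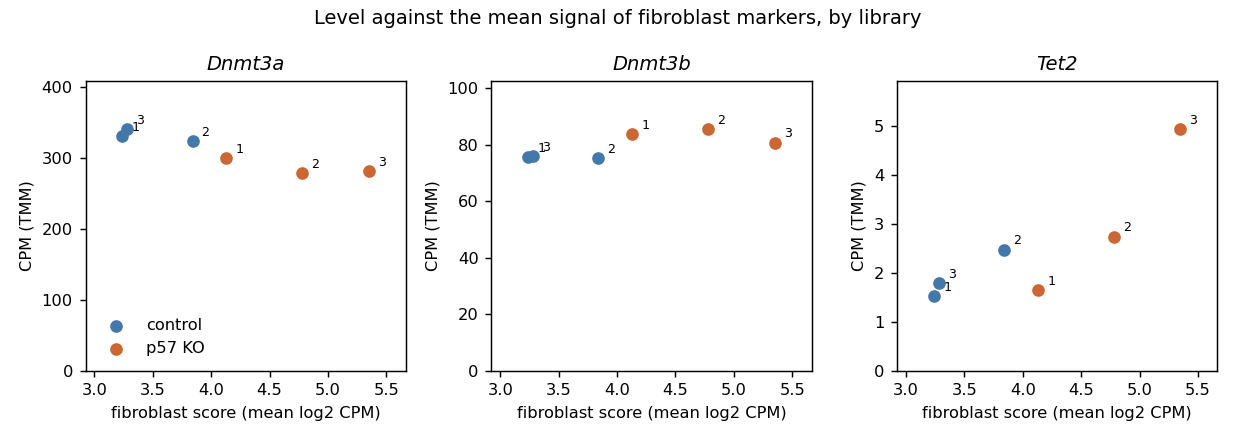
CPM of Dnmt3a, Dnmt3b and Tet2 in each library against the fibroblast score, the mean log2 CPM of 19 fibroblast and feeder cell markers; numbers are replicates. The p57 KO libraries have scores from 4.13 to 5.35 and the control libraries from 3.24 to 3.84, and Tet2 is highest, at 4.93 CPM, in the library with the highest score.

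The genes that work with these enzymes, in lists grouped by function, differed mostly by small amounts. Counts in these lists stand beside 11.6% of all tested genes that fell and 11.6% that rose. Of 16 tested partners and guides of methyltransferases 5 fell, with a median of -0.04, and 2 to 6 fell when 1 library was left out (2 without control replicate 3, 3 without any 1 of control replicates 1 and 2 and p57 KO replicates 2 and 3). For Trim28, the corepressor that protects imprints together with zinc finger proteins, the log2 change was -0.15 (edgeR adjusted p = 0.000295). Nsd1, which places the H3K36 methylation that DNMT3A reads, had -0.14 (0.00192), and Smchd1, a silencing factor of the inactive X, had -0.09 (0.0165, but 0.0679 and 0.056 when control replicate 2 or 3 was left out). The homologs Uhrf2 and Trdmt1, the latter a tRNA methyltransferase, had -0.05 and -0.10 and did not pass (edgeR adjusted p = 0.376 and 0.551, with 0 of 2 under an unadjusted 0.05 and 0 called by DESeq2 or limma-voom).

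The piRNA pathway directs new methylation to transposons in fetal male germ cells. Of its 13 genes 1 rose and 3 fell, with a median of -0.04; DESeq2 called 1 of them lower. Tex15, a spermatocyte and piRNA pathway protein gene, rose by 0.18 (edgeR adjusted p = 0.000212). Spocd1, needed for piRNA-directed methylation, went from 7.48 ± 0.832 to 4.99 ± 0.12 CPM (SD, n = 3 per group), which is -0.58 in log2 (SE 0.14, adjusted p = 0.00362 in edgeR). Piwil4, the nuclear PIWI protein of that pathway, had -0.25 (0.0116), and lost the call when control replicate 3 (edgeR adjusted p = 0.0668) or p57 KO replicate 2 (0.0741) was left out, and in DESeq2 (0.0608).

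Of 8 genes of TET cofactors and partners, 2 fell and 1 rose, against 23.3% of all tested genes called in either direction. Cxxc5, a CXXC protein known to bind TET2, had -0.32 (edgeR adjusted p = 2.17e-06) and Ogt, the glycosyltransferase that forms complexes with TET proteins, had -0.23 (5.44e-05). Idh1, which makes the TET cofactor 2-oxoglutarate, had 0.15 (0.0162). Its adjusted p was 0.104 when control replicate 1 was left out, 0.068 when p57 KO replicate 3 was, and 0.0709 in DESeq2. Of 11 genes of base excision 1 fell (Ung, given above), and the count was 2 without p57 KO replicate 1; Tdg, which excises oxidised methylcytosine, had 0.12 and did not pass (edgeR adjusted p = 0.202).

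Of 8 methyl-CpG readers 1 fell, Zbtb33, the gene of Kaiso, with -0.25 (edgeR adjusted p = 7.63e-05). Zbtb4, which encodes another zinc finger reader, had 3.46, 4.53 and 3.96 CPM in control replicates 1 to 3 and 5.62, 7.79 and 13.4 CPM in p57 KO. Every p57 KO library was above the control libraries, with the highest value in replicate 3, which also has the highest fibroblast score. Its difference of 1.17 in log2 was the largest among the tested genes of these lists and missed the threshold in edgeR (adjusted p = 0.095). It passed in DESeq2 (0.0242), in limma-voom (0.0216), without the filter on low counts (0.00283), with non-robust dispersions (0.00678), and in edgeR without p57 KO replicate 1 (1.42, 0.000459) or replicate 3 (0.75, 0.00232). When the score was in the model the difference was -0.17 (edgeR adjusted p = 0.853).

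Of 11 genes of methyl donor synthesis 1 fell (Shmt1, -0.12, edgeR adjusted p = 0.00742) and 1 rose (Mthfd1, 0.14, 0.0114), both enzymes of the folate cycle. Mthfd1 lost its call without control replicate 1 (edgeR adjusted p = 0.0547), control replicate 3 (0.0688) or p57 KO replicate 2 (0.0826). Of 7 genes of CpG island binding and H3K4 methylation, Cxxc1, which brings H3K4 methylation to unmethylated CpG, rose by 0.12 (edgeR adjusted p = 0.00853; 0.0714 without control replicate 3) and Kdm5b, an H3K4 demethylase, fell by 0.09 (0.0214, but 0.122 when control replicate 1 and 0.0573 when p57 KO replicate 2 was left out). Of these 7, 2 fell without control replicate 2 or p57 KO replicate 1, and 2 of the 11 methyl donor genes rose without p57 KO replicate 1.

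Germline genes whose promoters are methylated and silent in somatic cells are known targets of these enzymes. Of 19 tested, 5 fell, against 11.6% of all tested genes. Some of the 19 are also in the piRNA list above, and 1 of these 5 falls is counted there too. The 19 genes had a median log2 fold change of -0.05 and a summed level of 4870 to 4990 CPM in control and 4580 to 4670 CPM in p57 KO. Dazl, an RNA-binding protein gene that is also one of the 12 spermatogonial markers, had -0.25 (edgeR adjusted p = 1.62e-05), Slc25a31, a germ cell ADP/ATP carrier gene, had -0.13 (0.0026) and Taf7l, a germ cell homolog of a TFIID subunit gene, -0.11 (0.00484). Leaving out 1 library, 3 to 6 of the 19 fell, the fewest without control replicate 1, and 3 fell in DESeq2. In the model that holds the fibroblast score, 3 of the 27 named genes that were called kept their call in edgeR (Cdkn1c, Dazl with -0.22 and Ogt with -0.29), and all 27 kept their direction.

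**Figure D5:**
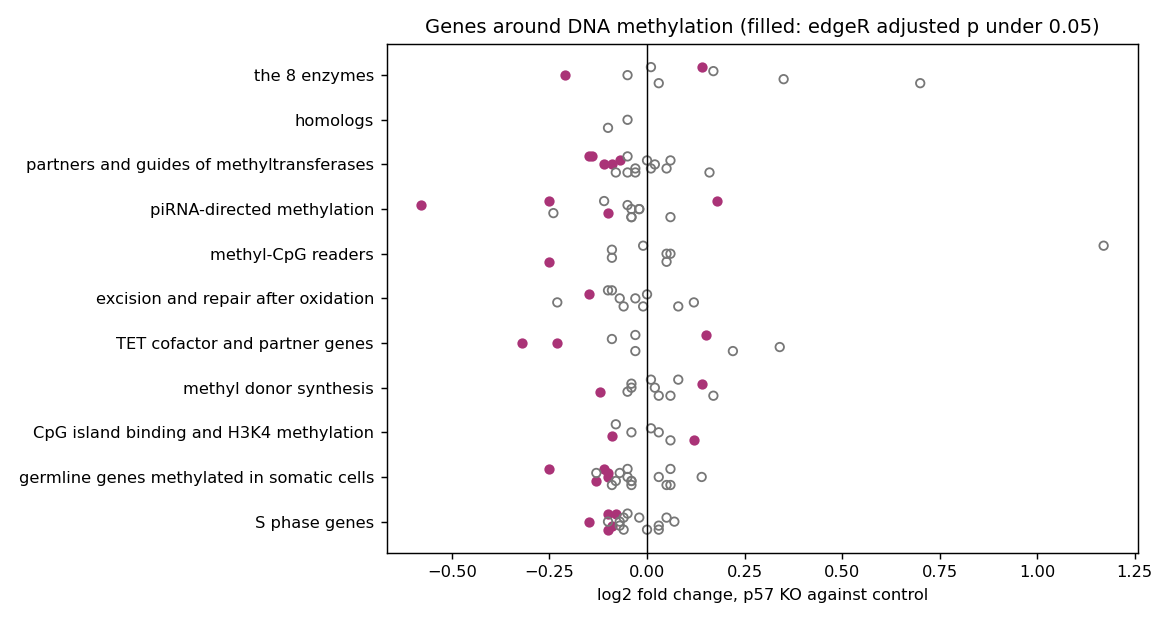
Log2 fold change of each tested gene of the lists around DNA methylation, p57 KO against control; filled points passed an edgeR adjusted p under 0.05 and open points did not. Most points lie within 0.25 of 0; Spocd1 at -0.58 is the lowest, and the open point on the far right is Zbtb4 at 1.17 (edgeR adjusted p = 0.095, and under 0.05 in DESeq2 and limma-voom).

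Profiles most like those of the 2 called genes were sought among 11140 genes of at least 5 CPM, by the root mean square distance of centred log2 CPM over the 6 libraries. Close fold changes follow from this choice and are no separate result. For Dnmt3a these were Epb41l5, Wasf1 and Mgrn1, with distances of 0.012, 0.013 and 0.016 and log2 fold changes of -0.19, -0.21 and -0.20. For Dnmt3b they were Pla2g4b, Dcaf4 and Hid1, with distances of 0.012, 0.015 and 0.017 and log2 fold changes of 0.13, 0.12 and 0.14. Of the latter 3, Dcaf4 was called (edgeR adjusted p = 0.0249), and it lost the call when any 1 control library, p57 KO replicate 1 or p57 KO replicate 2 was left out, with adjusted p-values from 0.0593 to 0.103, and in DESeq2 (0.105).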

How the data were processed

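RNA was measured by stranded mRNA sequencing with single reads of 76 bases in 3 control and 3 p57 KO libraries. The labels disagree on the library kit. The authors deposited raw counts per gene without normalization. HTSeq 2.0.2, HISAT2 2.2.1, cutadapt 3.4, bcl2fastq 2.20 and build mm10 are listed in the submitters' processing notes. Annotation, strand setting and treatment of multiply matching reads: not given in the sources used here. Positions and exon lengths came from GENCODE M21 (32158 of 32285 identifiers found, 31436 with the same symbol). Genes passed edgeR's filterByExpr (14814) and were tested after TMM scaling with edgeR 4.0.16's quasi-likelihood F-test (limma 3.58.1, R 4.3.3), group as the only term, robust dispersions and Benjamini-Hochberg adjustment over all tested genes; "rose" and "fell" mean an adjusted p under 0.05. The SE and the 95% interval come from that F statistic. The biological coefficient of variation common to all genes was 4.35%, and small folds of well expressed genes pass. The test was tried on simulated data first.

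The 8 genes, the lists and the rule for naming genes (all 8, Cdkn1c, homologs, up to 3 called genes of smallest p per list, the nearest profiles) were chosen with earlier results of these data known. Tdg, Zbtb4, Dnmt3aos, Dnmt3bos, Aire and Gm42567 were named after their values were seen, and Gm5648 for its shared sequence. Marker lists of other cell types gave 1 of 4 tested Sertoli cell genes higher, 2 of 2 macrophage genes higher and no call for the 1 tested Leydig cell gene; 2 of 6 markers of differentiating spermatogonia rose and 1 fell. Leydig Hsd3b1 had 0 counts throughout. Alternatives were RLE factors, DESeq2 1.42.0, limma-voom, 2 other filters, non-robust dispersions, a block for the replicate number, leaving out each library, a fold of 1.2 as null and the fibroblast score as a covariate. Replicate pairs differed by more than sampling noise (chi-square per degree of freedom 1.69 to 5.97).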

Additional observations from a re-analysis of the deposited data

How the results depend on the processing

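Dnmt3a kept its direction in all 15 alternatives and its call in 13, with log2 fold changes from -0.25 to -0.11; Dnmt3b kept its direction in 15 and its call in 11, from 0.12 to 0.19. DESeq2 called 1044 genes lower over all genes, against 1725, and 0 of the 8 higher. Without a filter on low counts 2 of the 8 were higher, as Tet2 joined. Against a fold of 1.2, 414 genes were higher and 55 lower, with 0 and 0 of the 8. With the fibroblast score 242 were higher and 161 lower, again 0 and 0 of the 8, and Tet2 reversed to -1.05. Leaving out 1 library gave 1180 to 2136 genes higher and 1178 to 1893 lower, 0 to 2 of the 8 higher and 1 lower, and log2 fold changes from -0.02 to 0.03 for Uhrf1 and from -0.04 to 0.34 for Tet1. The 1.2-fold null asks for more by construction. The fibroblast score did not overlap between the groups, so its model estimates the group term less precisely, and its fewer calls give no verdict on cell mixture. The cause of the other changes was not tested.

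Same-numbered libraries did not clearly deviate together (correlations of deviations from the group means 0.19, 0.02 and -0.10). Pairing by replicate number was thus not detected, but 3 libraries per group cannot exclude it. With the replicate number as a block 1934 genes rose and 1772 fell, with 1 and 1 of the 8, and Zbtb4 was called (edgeR adjusted p = 0.000297). Not every library correlated best with its own number. Depth limits Dnmt3l and Tet1, with 6 to 20 counts per library; Tet2, with 25 to 88, varied most among the p57 KO libraries (26, 45 and 88 counts). Under the filter of at least 1 CPM in 3 libraries, 6 of the 8 were tested, without Dnmt3l and Tet1.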
